A study of Mus musculus with 38 samples.

Results

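The 4 genes Gtsf1l, Ankrd61, Spata45 and Dnajc5b, out of 15113 genes tested in mouse testis, were taken as spermatid genes. They are low at day 19 without luteinising hormone signalling and higher 48 h after testosterone than after vehicle. They were chosen because their levels were lower in LuRKO than in wild-type testes at day 19 and much higher 48 h after testosterone than after vehicle, so those 2 differences are given below as a description, with no test. No threshold was set for the choice. Each gene was read from the probe with the highest mean signal among those annotated to its symbol, and each probe passed the filter of a signal above background on at least 2 arrays.

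Spermatids are the haploid cells that follow meiosis. They first build an acrosome, the enzyme-filled cap over the nucleus, as round cells, and then elongate, pack their DNA and grow a tail. In prepubertal mice the first wave of germ cells moves through these steps nearly in step, so that spermatid transcripts appear in the whole testis at a defined age. Luteinising hormone drives the Leydig cells, which lie between the tubules, to make testosterone, and testosterone acts mainly through the Sertoli cells that nurse the germ cells. Spermatids depend on it to mature.

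LuRKO mice lack the receptor for luteinising hormone in every cell. RNA of whole testes of 20 groups was hybridised to 38 Illumina bead arrays of 1 colour, each array holding testes pooled from 2 animals. Untreated LuRKO and wild-type littermates were taken at 5 ages after birth, namely day 3, day 8, day 13, day 19 and day 27. In 2 further sets, LuRKO males were injected once, intraperitoneally, at day 19 with testosterone propionate, an ester that releases testosterone. The first of these sets was taken 2, 4, 8, 12, 24 or 48 h after 2.5 mg. The second was taken at 24 h after vehicle, 250 ng, 2.5 µg or 25 µg. Each group had 2 arrays, labelled A and B, except LuRKO day 27 and the 24 h group of 2.5 mg, which had 1 each. The age label of vehicle array A gives 34 h after day 19, while its time label gives 24 h. The vehicle animals were a day younger than those at 48 h and belonged to the other injected set. Age, set and testosterone therefore cannot be told apart in that comparison. Untreated LuRKO testes of day 19 stood only in the developmental set. In a whole testis, fewer cells of a type and less RNA per cell cannot be told apart.

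Between 23876 and 23912 probes stood above background on each array, and 7 of 10 Sertoli cell markers did so on every array. The deposited values already shared a common distribution, so the number of probes could hardly differ between arrays. The gene targeted in LuRKO was not analysed here. In 3 arrays marker levels stood apart from their group partner. Wild-type day 3 array A held Ldhc, a spermatocyte enzyme, at 10.61 against 7.70 on array B (log2 intensity). Rhox5, an androgen-responsive Sertoli cell gene, was at 10.61 on LuRKO day 13 array B against 9.06 on A, and at 10.92 on vehicle array A against 8.15 on B. Results that use these arrays were also computed without them.

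Gtsf1l (gene 68236) lies on chr2:163087031-163089601 and encodes a relative of Gtsf1, a small zinc finger protein that helps PIWI proteins silence transposons. Ankrd61 lies on chr5:143890637-143895067 and encodes an ankyrin repeat protein. Spata45 lies on chr1:191035909-191042942 and is named for its association with spermatogenesis. Dnajc5b lies on chr3:19508591-19610862 and encodes cysteine string protein beta, a testis-enriched relative of the vesicle co-chaperone Dnajc5. All coordinates are those of RefSeq on GRCm38.p6. Gtsf1l had 2 kept probes and the other members had 1 each.

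RefSeq promoter sequence was at hand for 2 of the 4 genes, Gtsf1l with 1 start site and Spata45 with 2, and the 250 bases before each start are shown because both genes rose at 12 h and at day 27. Capitals mark matches on either strand to GTTNCC, the core letters bound by RFX factors, which are known regulators of genes of round spermatids and cilia.
Gtsf1l, chr2:163089602-163089851, minus strand: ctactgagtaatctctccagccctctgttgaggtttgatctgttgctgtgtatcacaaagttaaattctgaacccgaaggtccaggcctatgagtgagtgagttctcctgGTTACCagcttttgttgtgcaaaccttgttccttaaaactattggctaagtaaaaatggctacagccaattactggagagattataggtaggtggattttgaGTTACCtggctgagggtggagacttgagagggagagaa
Spata45 start 1, chr1:191035659-191035908, plus strand: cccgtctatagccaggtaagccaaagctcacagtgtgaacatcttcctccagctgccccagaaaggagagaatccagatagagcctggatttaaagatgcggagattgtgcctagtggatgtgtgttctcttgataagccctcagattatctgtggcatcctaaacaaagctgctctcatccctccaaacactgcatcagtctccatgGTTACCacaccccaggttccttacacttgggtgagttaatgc
Spata45 start 2, chr1:191036569-191036818, plus strand: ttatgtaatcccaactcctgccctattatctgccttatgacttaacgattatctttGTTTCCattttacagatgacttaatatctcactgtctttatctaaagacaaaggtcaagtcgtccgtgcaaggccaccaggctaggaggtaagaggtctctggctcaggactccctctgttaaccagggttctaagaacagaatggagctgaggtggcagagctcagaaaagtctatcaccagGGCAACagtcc
In Gtsf1l the matches began 140 and 38 bases before the start. In Spata45 one began 42 bases before start 1, and before start 2 they began at 194 bases and, on the opposite strand, at 11 bases. Such a match is common: 39.4% of the 32851 promoter windows of this length held at least 1 and 9.7% held 2 or more. This motif was picked after the sequences had been seen. AGAACA, the core letters bound by steroid hormone receptors, had 1 match before each Spata45 start and none before that of Gtsf1l, against 16.1% of all windows. CCAAT had 2 matches before Gtsf1l and none before Spata45, against 33.8% of all windows. TGACGTCA, the cAMP response element, its shorter form TGACG, which lies within it, and TATAAA had no match in these windows, and occurred in 1.55%, 17.8% and 12.4% of all windows.

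At days 3, 8 and 13 the 4 genes were near or below background in both genotypes, where background ended at a log2 intensity of 6.63. Over those 12 arrays Gtsf1l ranged between 5.70 and 6.22, Spata45 between 6.01 and 6.35, and Dnajc5b between 6.15 and 6.47, and none of these 3 genes was above background on any of them. The Ankrd61 probe gave 6.85 to 7.31 and was above background on all 12. Ankrd61 lies within the span of Eif2ak1, a translation kinase, whose brighter probe gave 9.73 in wild-type testes at day 27 and 9.76 at day 13, whereas Ankrd61 differed 100.2-fold between those ages. None of the 4 genes passed the test for LuRKO against wild type at day 3, where 8.25% of all genes did so in either direction (limma, adjusted p under 0.05), at day 8, where 0.0463% did, or at day 13, where 1.74% did, and 0 of 4 had an unadjusted p under 0.05 at any of these ages. The log2 differences lay between 0.01 and 0.25 at day 3, between 0.00 and 0.16 at day 8, and between -0.11 and 0.10 at day 13.

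**Figure D1:**
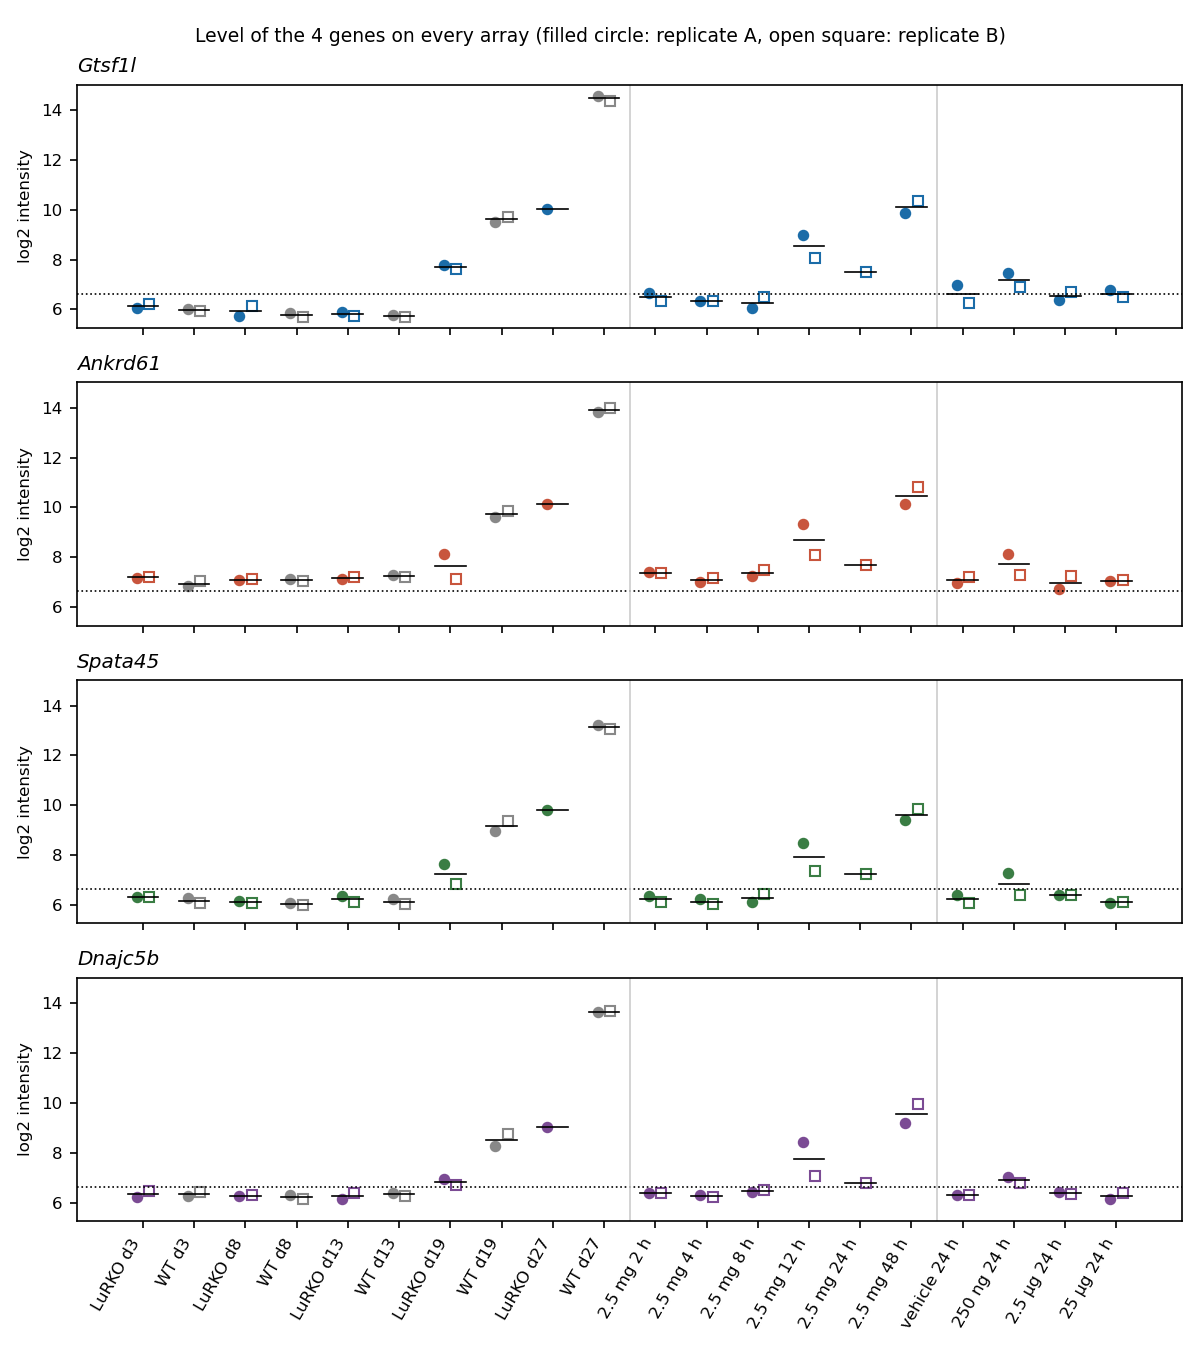
Log2 intensity (y axis) of each gene on each array, by group (x axis), with filled circles for replicate A, open squares for replicate B, black lines for group means, the dotted line at 6.63 for background, and grey symbols for wild type. Wild-type day 27 arrays lie highest for each gene, and in LuRKO the highest arrays are those of 48 h and day 27.

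At day 19 the genes had appeared in wild-type testes and much less in LuRKO testes, which is one of the differences they were chosen for. Gtsf1l was at 7.77 and 7.62 in LuRKO and at 9.52 and 9.70 in wild type. Ankrd61 was at 8.15 and 7.14 in LuRKO and at 9.63 and 9.85 in wild type. On 1 of the LuRKO arrays Ankrd61 therefore stayed within its range of the earlier ages. Spata45 was at 7.63 and 6.84 in LuRKO and at 8.98 and 9.36 in wild type. Dnajc5b was at 6.94 and 6.72 in LuRKO and at 8.26 and 8.75 in wild type. For each of the 4 genes the LuRKO arrays lay below the wild-type arrays with no overlap, as 27.8% of all genes did. The log2 differences were -1.91 for Gtsf1l, -2.10 for Ankrd61, -1.94 for Spata45 and -1.67 for Dnajc5b, at an age where 11.2% of all genes passed the test as lower in LuRKO.

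By day 27 the genes were 10.2 to 25.0 times lower in LuRKO than in wild type. The differences used to choose the genes held no day 27 arrays, although all arrays entered the choice of probe and the background filter. Gtsf1l was at 10.02 in the LuRKO array and at 14.58 and 14.35 in wild type. The log2 difference was -4.44 (SE 0.29, limma adjusted p = 1.2e-13), or 21.8-fold. Gtsf1l also had a dimmer probe, and that probe gave a log2 difference of -5.14.

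Ankrd61 was at 10.12 in LuRKO at day 27 and at 13.82 and 14.01 in wild type, a log2 difference of -3.79 (SE 0.35, adjusted p = 2.7e-10). Spata45 was at 9.79 in LuRKO and at 13.22 and 13.05 in wild type, a log2 difference of -3.35 (SE 0.33, adjusted p = 7.7e-10). Both genes were higher in the LuRKO testis of day 27 than on any LuRKO array of the earlier ages, and still below every wild-type array of day 27. Dnajc5b was at 9.02 in LuRKO and at 13.66 and 13.68 in wild type, and its log2 difference of -4.65 (SE 0.30, adjusted p = 1.1e-13) was 25.0-fold. All 4 genes fell in the test at this age, against 20.9% of all genes tested. The single LuRKO array was assumed to vary like the arrays of the other groups.

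The 4 genes rose with age in both genotypes, and by less in LuRKO. In LuRKO testes Gtsf1l was at least 10.4-fold higher at day 27 than at day 13, Spata45 at least 8.90-fold and Dnajc5b at least 5.23-fold. Ankrd61 was 7.79-fold higher. "At least" stands where the gene was not above background on any array of the lower group, whose level was then set to the background limit or to the array's own signal, whichever was higher. In wild-type testes Gtsf1l was at least 227-fold higher, Dnajc5b at least 131-fold, Spata45 at least 90.8-fold and Ankrd61 100.2-fold. Each of these rises passed the limma test, as did 18.3% of all genes as higher in LuRKO and 24.9% as higher in wild type.

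The rise between day 13 and day 27 itself differed between genotypes. On the log2 scale the LuRKO rise was smaller than the wild-type rise by an interaction of -4.51 for Gtsf1l (SE 0.37, adjusted p = 4.6e-11) and -4.58 for Dnajc5b (SE 0.39, adjusted p = 7.7e-11). For Ankrd61 it was -3.69 (SE 0.45, adjusted p = 1.3e-07), and for Spata45 -3.45 (SE 0.42, adjusted p = 1.1e-07). A smaller rise in LuRKO was called for all 4 genes, against 15.9% of all genes, and for all 4 again without the 3 arrays that stood apart. Gtsf1l, Spata45 and Dnajc5b were not above background at day 13 in either genotype, so for these 3 genes the value follows the difference at day 27.

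After 2.5 mg of testosterone propionate the genes stayed low for 8 h. Over the 6 arrays of 2, 4 and 8 h Gtsf1l ranged between 6.05 and 6.66 with a median of 6.33, Ankrd61 between 7.01 and 7.50 with a median of 7.31, Spata45 between 6.04 and 6.44 with a median of 6.18, and Dnajc5b between 6.24 and 6.50 with a median of 6.38. At 8 h the log2 differences from the mean of 2 h and 4 h lay between -0.14 and 0.13. None passed the test, as 0.152% of all genes did in either direction, and 0 of 4 had an unadjusted p under 0.05. The arrays of 2 and 4 h served as the baseline because the vehicle and the untreated day 19 arrays had been used to choose the genes.

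At 12 h all 4 genes had risen above their levels of 2 and 4 h. Gtsf1l was at 8.99 and 8.08 at 12 h, against 6.66 and 6.33 at 2 h and 6.32 and 6.33 at 4 h. It was above background on 1 of the 4 arrays of 2 and 4 h, so the log2 difference of 2.12 (SE 0.20, limma adjusted p = 5.7e-07) starts from a level at the edge of detection. The 12 h arrays lay above every earlier one. The dimmer Gtsf1l probe gave 1.47.

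Ankrd61 was at 9.32 and 8.11 at 12 h, against 7.42 and 7.36 at 2 h and 7.01 and 7.19 at 4 h, a log2 difference of 1.47 (SE 0.25, adjusted p = 0.00041). Spata45 was at 8.50 and 7.35 at 12 h, against 6.34 and 6.13 at 2 h and 6.23 and 6.04 at 4 h. It was at least 2.44-fold higher (log2 difference 1.74, SE 0.23, adjusted p = 3.4e-05). Both genes were well above their earlier arrays on array A and less so on array B. Dnajc5b was at 8.42 and 7.09 at 12 h, against 6.37 and 6.39 at 2 h and 6.32 and 6.24 at 4 h, and was at least 2.17-fold higher (log2 difference 1.42, SE 0.21, adjusted p = 0.00014). The 12 h arrays did not overlap the earlier arrays for any of the 4 genes, which held for 15.4% of all genes as higher, and 5.72% of all genes passed the test as higher.

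The 2 arrays of 12 h were unlike each other in these genes. Array A exceeded array B by 0.91 for Gtsf1l, 1.21 for Ankrd61, 1.15 for Spata45 and 1.33 for Dnajc5b on the log2 scale, while the 95th percentile of this difference over all genes was 0.33. Listed genes of the acrosome and of round spermatids were higher on array A by a median of 0.26. Rhox5 was at 11.06 on array A and at 10.88 on array B. Without array A, Gtsf1l at 1.67 and Spata45 at 1.16 still passed the test, whereas Ankrd61 at 0.87 (adjusted p = 0.10) and Dnajc5b at 0.76 (adjusted p = 0.053) did not. What sets the 2 arrays apart was not tested.

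**Figure D2:**
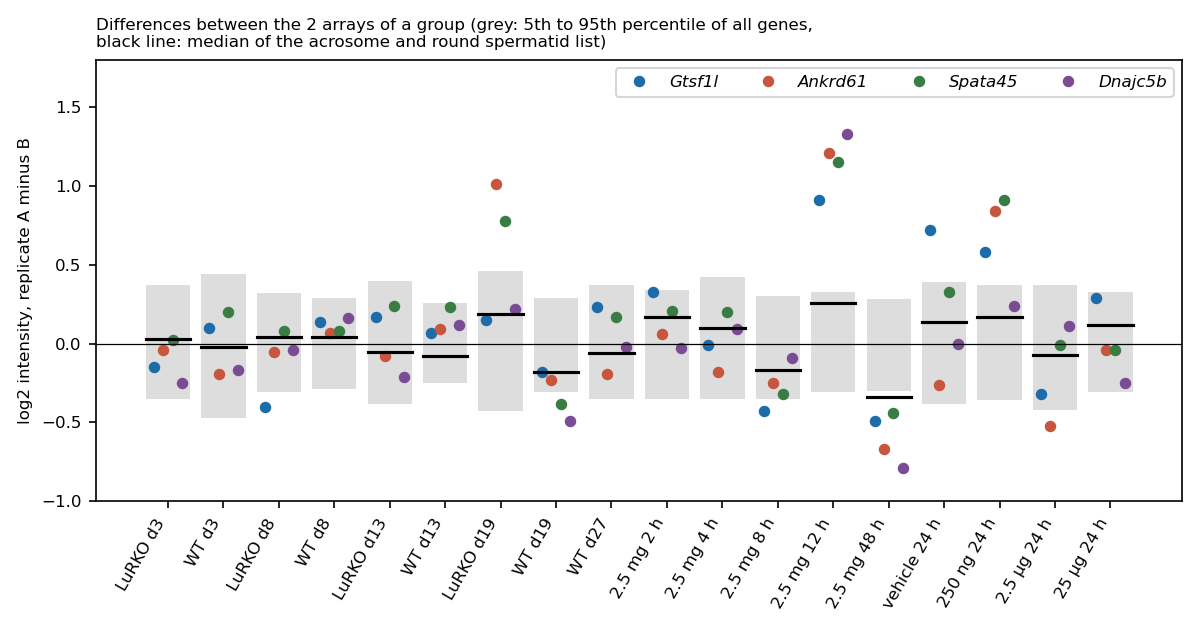
Difference in log2 intensity between replicates A and B (y axis) of each group with 2 arrays (x axis), with a point for each of the 4 genes, grey bars for the 5th to 95th percentile of all genes and black lines for the median of the acrosome and round spermatid list. The 4 genes lie above the grey bar at 12 h and below it at 48 h.

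On the single array of 24 h each of the 4 genes was lower than on either array of 12 h and of 48 h. Gtsf1l was at 7.50, a log2 difference of 1.09 (SE 0.26, limma adjusted p = 0.0072) from the mean of 2 and 4 h, where 1 of 4 arrays was above background. Spata45 at 7.24 was at least 1.53-fold higher (log2 difference 1.06, SE 0.30, adjusted p = 0.019), since none of the 4 arrays of 2 and 4 h was above background. For Dnajc5b at 6.79 the bound was 1.12-fold (log2 difference 0.46, SE 0.28, adjusted p = 0.28). Ankrd61 at 7.71 differed by 0.47 (SE 0.32, adjusted p = 0.36). So 2 of 4 genes passed, against 6.88% of all genes as higher. The dimmer Gtsf1l probe gave 0.36, and with the mean of both probes Gtsf1l was at 0.72 (adjusted p = 0.062).

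At 48 h the genes reached their highest levels of the treated animals, the second difference they were chosen for. Gtsf1l was at 9.86 and 10.35 at 48 h and at 6.96 and 6.24 after vehicle. Ankrd61 was at 10.14 and 10.81 at 48 h and at 6.98 and 7.23 after vehicle. Gtsf1l was above background on 1 of the 2 vehicle arrays, and Ankrd61 on both. Spata45 was at 9.40 and 9.84 at 48 h and at 6.40 and 6.07 after vehicle. Dnajc5b was at 9.18 and 9.97 at 48 h and at 6.31 on both vehicle arrays. The groups did not overlap for any of the 4 genes, which held for 27.6% of all genes as higher. The log2 differences were 3.50 for Gtsf1l and 3.37 for Ankrd61, while Spata45 was at least 7.91-fold higher and Dnajc5b at least 7.68-fold, with 10.7% of all genes passing the test as higher.

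The 2 arrays of 48 h differed in these genes too. Array A was below array B by 0.44 to 0.79, and below it by a median of 0.34 in the acrosome and round spermatid list and of 0.66 in the elongating spermatid list.

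**Figure D3:**
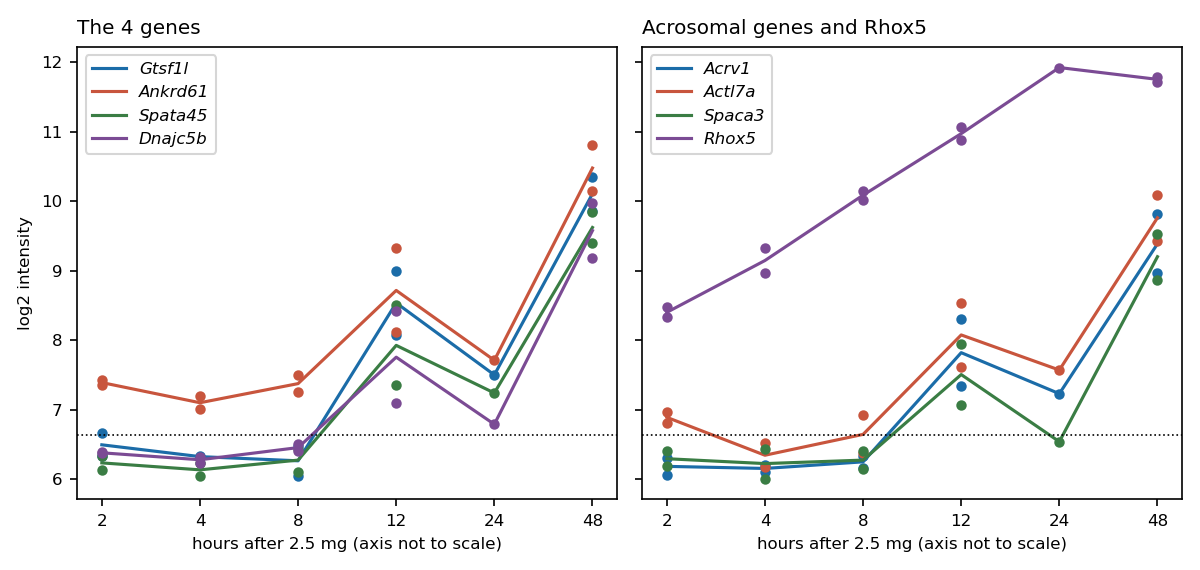
Log2 intensity (y axis) against hours after 2.5 mg of testosterone propionate (x axis, not to scale) for the 4 genes on the left and for Acrv1, Actl7a, Spaca3 and Rhox5 on the right, with points for arrays, lines for means and the dotted line at background. The 4 genes and the 3 acrosomal genes stay low until 8 h and are highest at 48 h, while Rhox5 is already higher at 8 h than at 2 h. The Rhox5 difference of 8 h from the mean of 2 and 4 h, 1.31 (SE 0.41, limma adjusted p = 0.32), did not pass the test.

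Set against untreated testes, the levels of 48 h were close to those of LuRKO at day 27 and somewhat above those of wild type at day 19. The differences that follow cross separate sets of arrays and were not tested. From LuRKO at day 27 the 48 h means differed by 0.08 for Gtsf1l, 0.36 for Ankrd61, -0.17 for Spata45 and 0.55 for Dnajc5b on the log2 scale. From wild type at day 19 they differed by 0.50, 0.74, 0.44 and 1.07 in the same order, with every array of 48 h above both wild-type arrays. From wild type at day 27 they differed by -4.36, -3.44, -3.52 and -4.09.

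The early and the vehicle-treated LuRKO testes had less of these transcripts than the untreated LuRKO testes of day 19 in the developmental set. Vehicle minus untreated day 19 LuRKO was -1.09 for Gtsf1l, -0.54 for Ankrd61, -0.99 for Spata45 and -0.52 for Dnajc5b. Measured from untreated day 19 LuRKO in place of vehicle, the 48 h differences were 2.41, 2.83, 2.38 and 2.74, those of 12 h were 0.84, 1.07, 0.69 and 0.92, and those of the 24 h array lay between -0.19 and 0.07. The 12 h differences from untreated day 19 LuRKO were thus smaller than those from 2 and 4 h. On array B of 12 h, Ankrd61 at 8.11 and Spata45 at 7.35 lay within the untreated day 19 LuRKO arrays, at 8.15 and 7.14 for Ankrd61 and at 7.63 and 6.84 for Spata45. Set, treatment and litter cannot be told apart here.

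Ordered by the mean log2 intensity of the 4 genes, wild-type day 27 stood alone at 13.77 to 13.82. The 48 h arrays at 9.64 and 10.24 enclosed LuRKO day 27 at 9.74, and wild-type day 19 followed at 9.10 to 9.42. Next came 12 h at 7.66 to 8.80. LuRKO day 19 at 7.08 to 7.62, the 24 h array at 7.31 and 250 ng at 6.84 to 7.48 overlapped one another. The arrays of 2, 4 and 8 h, of vehicle, of 2.5 µg and of 25 µg lay between 6.45 and 6.73, overlapping for the most part, and the arrays of days 3, 8 and 13 lay between 6.23 and 6.55.

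At 24 h the levels were, among the 3 lower doses, highest after 250 ng. Gtsf1l was at 6.96 and 6.24 after vehicle, at 7.47 and 6.88 after 250 ng, at 6.37 and 6.69 after 2.5 µg, at 6.78 and 6.49 after 25 µg and at 7.50 after 2.5 mg. Ankrd61 was at 6.98 and 7.23 after vehicle, at 8.15 and 7.31 after 250 ng, at 6.72 and 7.24 after 2.5 µg, at 7.04 and 7.08 after 25 µg and at 7.71 after 2.5 mg. In both genes the highest array of the 3 lower doses was array A of 250 ng. Spata45 was at 6.40 and 6.07 after vehicle, at 7.29 and 6.38 after 250 ng, at 6.39 and 6.41 after 2.5 µg, at 6.08 and 6.12 after 25 µg and at 7.24 after 2.5 mg. Dnajc5b was at 6.31 on both vehicle arrays, at 7.03 and 6.79 after 250 ng, at 6.44 and 6.34 after 2.5 µg, at 6.14 and 6.38 after 25 µg and at 6.79 after 2.5 mg. Spata45 and Dnajc5b were above background after 250 ng on at least 1 array and below it on all arrays of 2.5 µg and 25 µg.

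None of the 4 genes passed the test for any dose against 250 ng after adjustment over all genes. For 2.5 µg the log2 differences lay between -0.75 and -0.43 (limma adjusted p between 0.68 and 0.81), with 0.0199% of all genes called in either direction, and 3 of 4 had an unadjusted p under 0.05. For 25 µg they lay between -0.74 and -0.54 (adjusted p between 0.36 and 0.48), with 0.324% of all genes called, and all 4 had an unadjusted p under 0.05. For 2.5 mg they lay between -0.11 and 0.41, with 2.94% of all genes called and 0 of 4 at an unadjusted p under 0.05. The 95% interval of the difference between 2.5 mg and 250 ng ran from -0.26 to 0.92 for Gtsf1l and from -0.73 to 0.70 for Ankrd61, so these arrays do not show that the doses act alike. The 2.5 mg array also came from the time-course set and the 250 ng arrays from the other, so dose and set cannot be told apart there. In the arrays of these doses Rhox5 was at 8.17 and 8.14 after 250 ng, at 8.48 and 8.28 after 2.5 µg, at 10.72 and 11.27 after 25 µg and at 11.92 after 2.5 mg.

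**Figure D4:**
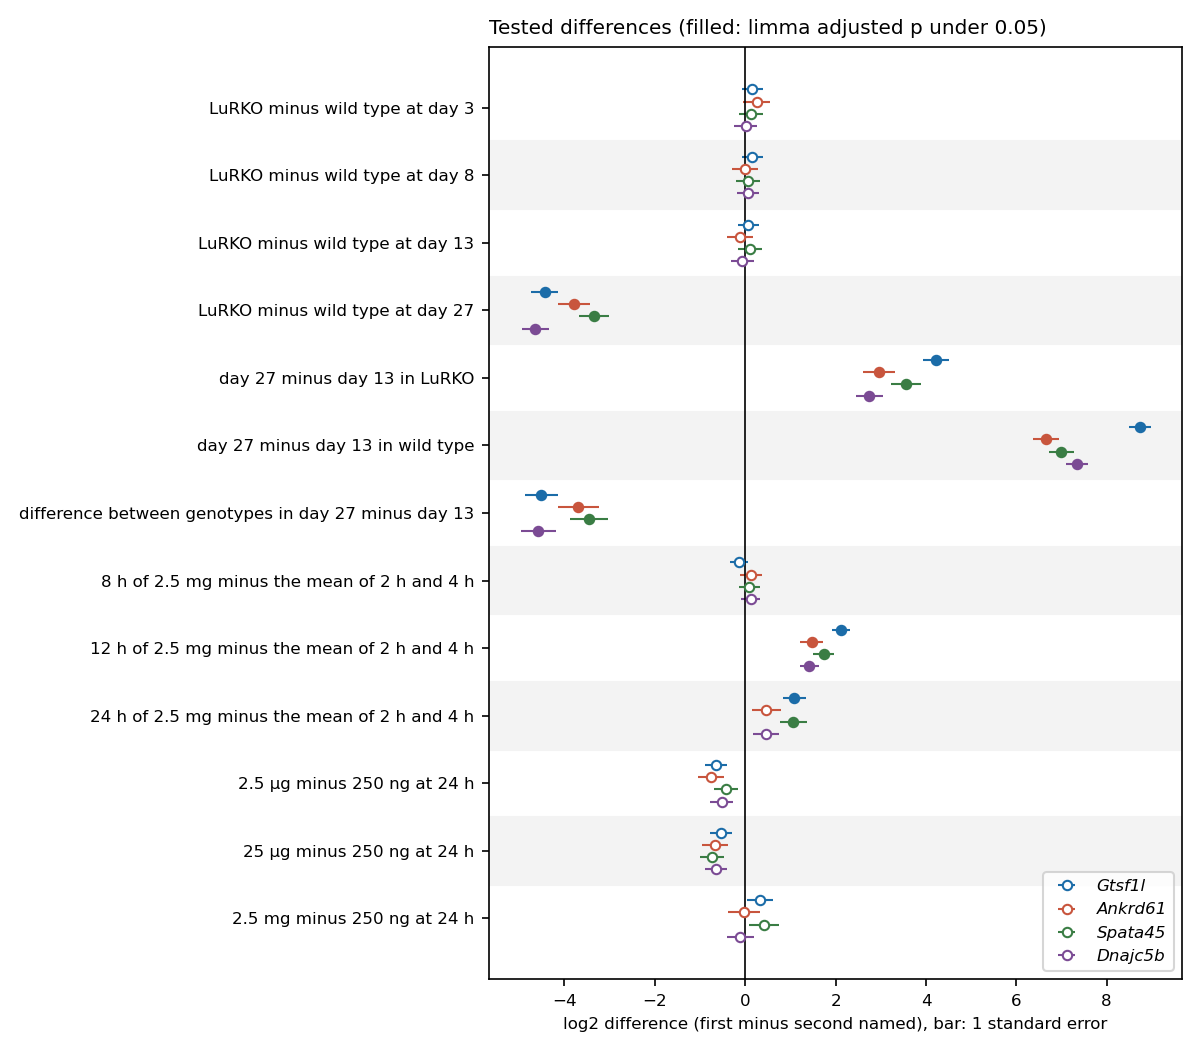
Log2 difference of each gene (x axis, first group minus second) in the comparisons that did not use the arrays of the choice (y axis), with bars of 1 standard error and filled points for a limma adjusted p under 0.05. The 4 genes pass together at day 27, in both age comparisons, in the interaction and at 12 h.

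The 4 genes ran closely alike across the whole study. Pearson's r between pairs of them over the 20 group means lay between 0.9796 and 0.9942. Over the 18 groups without day 27 it lay between 0.9488 and 0.9920. The group means share arrays and the 4 genes were chosen for a shared pattern, so these values describe the choice as well as the genes. In 8 of the 18 pairs of arrays the 4 genes lay on the same side between replicates.

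The genes most like the mean of the 4 over the 20 groups were Tex36 with r of 0.9982, Acrv1 with 0.9978, Nipsnap3a with 0.9965, Nt5c1b with 0.9964 and Actl7a with 0.9955. Acrv1 encodes a protein of the acrosomal matrix, and Actl7a an actin-like protein of the acrosome. Closest to Gtsf1l were Gm20738, on the Y chromosome, at 0.9942, Actl7a at 0.9941 and Gm5935, on the X chromosome, at 0.9930. Closest to Ankrd61 were Gm20747, also Y-linked, at 0.9956, Spaca3, an acrosomal protein with a lysozyme fold, at 0.9954 and Nipsnap3a at 0.9953. Spata45 was closest to Tex36 at 0.9970, Acrv1 at 0.9954 and Gm5800 at 0.9931. Dnajc5b was closest to Spaca3 at 0.9982, Nt5c1b at 0.9969 and 1700016D06Rik at 0.9965. The 20 groups include those of the choice, so these values too describe the choice as well as the genes.

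By gene list, likeness to the mean of the 4 genes was highest for spermatid lists. The groups of the choice are among the 20, so these values describe the choice as well as the lists. The median r over the 20 groups was 0.89 for 22 genes of the acrosome and round spermatids and 0.85 for 15 genes of elongating spermatids. The lowest r in these lists was 0.32 and 0.58. The median r was 0.34 for 16 genes of meiotic prophase and spermatocytes, 0.32 for 18 genes of the piRNA pathway and -0.52 for 10 Sertoli cell markers.

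The paralogs of the members did not share their pattern throughout. Gtsf2, the other relative of Gtsf1, was at 11.47 and 11.49 at 48 h and at 9.89 and 9.44 after vehicle, a rise of 1.82 on the log2 scale (SE 0.32, limma adjusted p = 0.00015). It was lower in LuRKO by -1.10 at day 19 (adjusted p = 0.013) and by -2.09 at day 27 (adjusted p = 3.9e-05). In these comparisons, though not in all of the study, Gtsf2 thus moved in the direction of Gtsf1l with smaller differences. At 12 h against 2 and 4 h Gtsf2 rose by 1.57 (limma adjusted p = 0.00059). Between day 13 and day 27 it rose at least 116-fold in wild type and at least 27.2-fold in LuRKO, with an interaction of -2.14 on the log2 scale. On the 24 h array its difference of 0.63 from 2 and 4 h did not pass the test.

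Gtsf1 differed from Gtsf1l in being far above background before spermatids form, at 11.52 and 11.28 in LuRKO and 11.53 and 11.54 in wild type at day 13. Its log2 difference was 0.32 at 48 h against vehicle (adjusted p = 0.13) and -0.82 in LuRKO at day 27 (adjusted p = 4e-04). At 12 h against 2 and 4 h it rose by 0.57 (adjusted p = 0.0051), and at day 3 it was lower in LuRKO by -1.61 (adjusted p = 2e-08). The day 3 comparison uses wild-type array A, which stood apart from its group partner. The mean of the spermatogonial markers was 8.52 on that array and 9.30 on wild-type array B.

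Dnajc5, the cysteine string protein of nerve terminals, went the other way from Dnajc5b. It fell by 0.36 at 48 h (difference -0.36, adjusted p = 0.022) and was higher in LuRKO by 0.85 at day 27 (adjusted p = 6.4e-06). The call of Dnajc5 at 48 h was lost when either array of 48 h or vehicle array A was left out. Dnajc5g, another testis cysteine string protein, was already at 9.99 and 10.06 in LuRKO and 10.43 and 10.28 in wild type at day 13. Its difference was 0.40 at 48 h (adjusted p = 0.051), and it was lower in LuRKO by -0.52 at day 19 (adjusted p = 0.011) and by -0.51 at day 27 (adjusted p = 0.016). Of 4 chaperone partners of cysteine string proteins 1 rose at 48 h, against 10.7% of all genes, and none fell. Hspa1l, a germ cell heat shock protein, rose by 0.48 at 48 h (adjusted p = 0.015). Its call at 48 h was lost when array B of 48 h or vehicle array B was left out. Hspa1l was lower by -5.43 in LuRKO at day 27 (adjusted p = 7.4e-21). Of the other partners, Sgta differed by -0.86, Hspa2 by 0.08 and Hspa8 by 1.23 at that age.

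Acrosome and round spermatid genes moved in the direction of the 4 members. At 48 h against vehicle 20 of 22 rose and none fell, with a median log2 difference of 1.17, against -0.04 over all genes, of which 10.7% rose and 10.5% fell. Acrv1 rose by at least 6.75-fold (adjusted p = 1.8e-10), Spaca3 by at least 5.92-fold (adjusted p = 1.7e-10) and Actl7a by 3.01 on the log2 scale (adjusted p = 5.8e-10). Gopc and Pick1, which sort vesicles to the growing acrosome, were the 2 that did not pass, at 0.24 and 0.13. The count was also 20 without the 3 arrays that stood apart.

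Of these 22 genes 17 were lower and none higher in LuRKO at day 19, with a median of -0.74. At day 27 19 were lower and none higher, with a median of -3.57 against 0.14 over all genes. Acrv1 differed by -1.78 at day 19 and by -3.92 at day 27. Per array, the mean of the list was 9.63 and 10.00 at 48 h and 8.52 and 8.33 after vehicle, 9.64 in LuRKO at day 27 and 12.28 and 12.33 in wild type at day 27.

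Among elongating spermatid genes 9 of 15 rose at 48 h and none fell, with a median of 1.04. Odf1, of the tail's outer dense fibres, rose by 2.71 (adjusted p = 5.3e-10), Hils1, a spermatid linker histone, by at least 4.73-fold and Smcp, of the mitochondrial sheath, by at least 4.56-fold. At day 27 all 15 were lower in LuRKO, with a median of -4.85. At day 19 8 were lower and 1 was higher. The gene that was higher, Prm1, is singled out here after its value was seen. It was not above background on either wild-type array of that age.

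**Figure D5:**
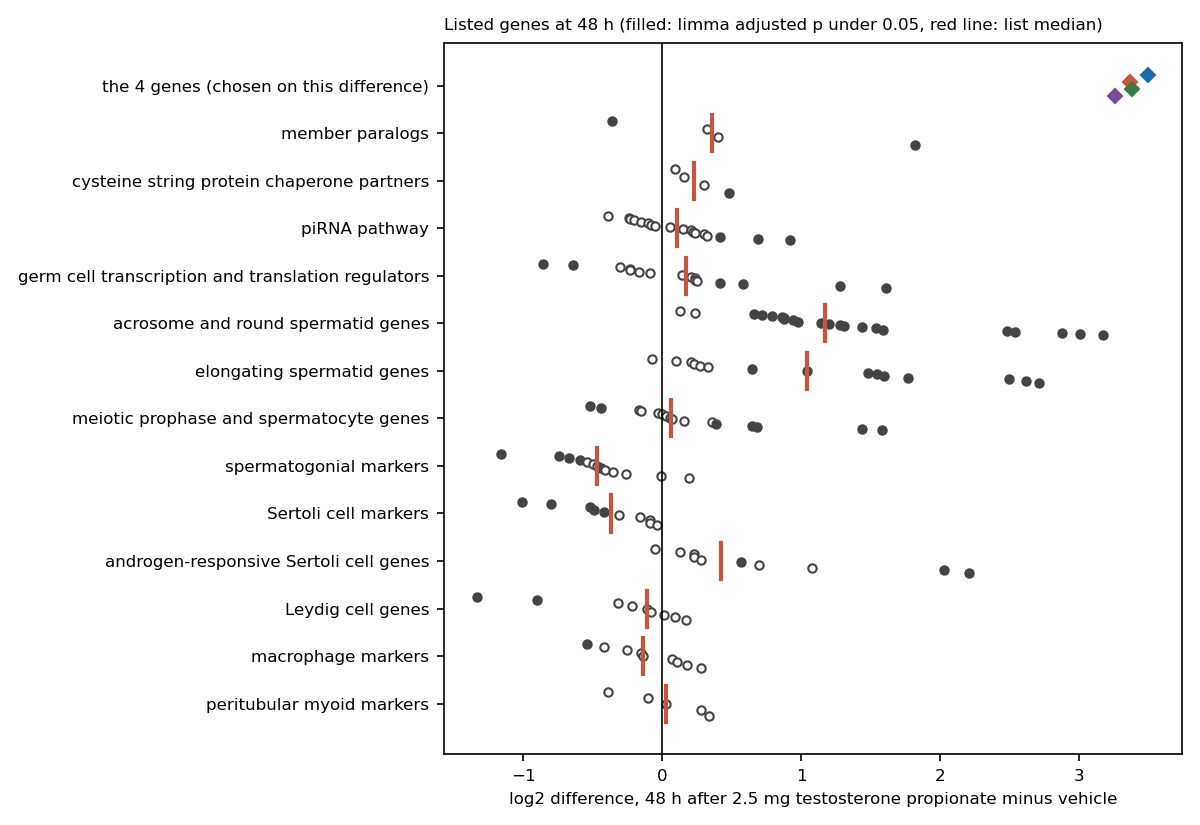
Log2 difference between 48 h after 2.5 mg and vehicle (x axis) for each gene of the lists (y axis), filled where the limma adjusted p is under 0.05, with red lines for list medians and diamonds for the 4 genes, which were chosen on this difference. All 22 acrosome and round spermatid genes lie right of 0 and the spermatogonial and Sertoli cell markers lie mostly left of it.

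For lists of earlier germ cells and of the piRNA pathway the counts are to be read against the 10.7% of all genes that rose and the 10.5% that fell at 48 h. Of 16 spermatocyte genes 5 rose and 2 fell at 48 h, with a median of 0.07. Ccna1, a cyclin of late spermatocytes, rose by 1.58 (adjusted p = 0.00072), the glycolytic enzyme gene Pgk2 by 1.44 and the chaperone gene Clgn by 0.68. Of 18 piRNA pathway genes 3 rose, a share near that of all genes, and none fell: Tdrd6 rose by 0.92, Piwil1 by 0.69 and Asz1 by 0.42. With single arrays left out the piRNA count was 0 to 2, with 0 without vehicle array B. Of 16 regulators of germ cell transcription and translation 4 rose and 2 fell. Fhl5, the germ cell partner of Crem, rose by at least 2.23-fold and differed by -4.95 in LuRKO at day 27, Papolb, a testis poly(A) polymerase, rose by 1.28, and Taf4b fell, with a difference of -0.86.

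Markers of cells that do not make spermatid transcripts moved in the same arrays, in which 10.5% of all genes fell. At 48 h 5 of 13 spermatogonial markers fell and none rose, with a median of -0.47, among them Stra8 at -1.16, Sohlh1 at -0.74 and Kit at -0.67. Of 10 Sertoli cell markers 5 fell and none rose, with a median of -0.37, among them Inha at -1.01, Gdnf at -0.80 and Trf at -0.52. The mean of the Sertoli list was 9.99 and 10.05 on the arrays of 48 h and 10.44 and 10.39 on those of vehicle. With single arrays left out, the spermatogonial count was 0 to 5, with 0 without vehicle array B and 2 without either array of 48 h, and the Sertoli count was 2 to 3. Their part in the rise of the 4 genes was not tested.

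Of 10 androgen-responsive Sertoli cell genes 3 rose at 48 h, against 10.7% of all genes, and none fell: Rhox5 rose by 2.21 (adjusted p = 0.0012), Defb45 by 2.03 and Eppin by 0.57. The mean of this list was 9.53 and 9.51 on the arrays of 48 h, against 9.32 on vehicle array A and 8.24 on vehicle array B, so the vehicle arrays differed more from each other than array A did from 48 h. Without vehicle array A 6 rose, without vehicle array B 1 rose, and without the 3 arrays that stood apart 7 rose. The 4 genes themselves were at or below 6.96 on vehicle array A, with the exception of Ankrd61 at 6.98.

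Of 9 Leydig cell genes 2 fell at 48 h, against 10.5% of all genes, Insl3 at -1.33 and Cyp11a1, on the brightest of its probes, at -0.90. The mean of the Leydig list was 7.63 and 7.60 at 48 h, against 8.27 on vehicle array A and 7.55 on vehicle array B, and without vehicle array A 1 gene fell and 1 rose. Of 9 macrophage markers 1 fell, a share near that of all genes: C1qc, at -0.54. The mean of the macrophage list was 8.04 and 7.96 at 48 h, against 8.33 on vehicle array A and 7.86 on vehicle array B. Without vehicle array A no macrophage marker fell and 1 rose, and without vehicle array B 3 fell. At 48 h none of 5 peritubular myoid markers passed, with Myh11 the farthest from 0 at -0.39 (limma adjusted p = 0.075) and 1 of the 5 lower at an unadjusted p under 0.05.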

How the data were processed

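Testis RNA of 20 groups was measured on 38 Illumina bead arrays. Per the submitters' processing notes BeadStudio was used (version not given in the sources used here). Probe intensities on a linear scale make up the deposited table, which the authors had already brought to one distribution: array medians lay between 108.1 and 108.3. A further deposited table of signals was not used, because its 76 columns of per-array values match no label.

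A single gene symbol was listed for 34885 of 45281 probes, several for 18 and none for 10378, and they were updated through gene IDs to RefSeq on GRCm38.p6. Intensities were corrected with normexp (offset 50) and put on the log2 scale in limma 3.58.1 under R 4.3.3. The background mode was 76.2 and its upper limit 103 (6.63 after correction), set at a one-sided 0.01 from the values under the mode. A probe was kept if above that limit on at least 2 arrays, and the brightest probe stood for its gene. This left 31617 probes and 15113 genes, 6621 of them with several probes.

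The linear model (limma, lmFit then eBayes) had 1 mean for each group over all arrays, with 18 residual and 10.4 prior degrees of freedom, and p-values were adjusted over all genes by Benjamini and Hochberg and called under 0.05. P-values measure the spread between arrays of pooled animals, and the number of arrays limits the precision. The pipeline was tested on simulated data. Replicate letters were checked as pairs: over 153 pairs of groups the differences between arrays A and B correlated with a median r of 0.01, ranging between -0.26 and 0.25, so the letters do not pair arrays.

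The members, the 13 gene lists and the comparisons were chosen with earlier results of these data known. Of each list up to 3 genes with the largest called difference at 48 h are named, or 1 if none was called. The paralogs and the genes most alike over groups are named too. Ranks at 48 h are not given, since levels below background have no order. Other settings tried are given at the end.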

Additional observations from a re-analysis of the deposited data

Results flagged for a closer look

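The change between day 13 and day 27 differed between genotypes for each of the 4 genes, by a test of the difference itself (limma interaction). The rise in LuRKO was smaller than that in wild type by a log2 difference of -4.51 for Gtsf1l (adjusted p = 4.6e-11), -3.69 for Ankrd61 (adjusted p = 1.3e-07), -3.45 for Spata45 (adjusted p = 1.1e-07) and -4.58 for Dnajc5b (adjusted p = 7.7e-11). LuRKO had 1 array at day 27. The dimmer Gtsf1l probe gave -5.16.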

How the results depend on the processing

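Single differences of the 4 genes kept their direction and call in 638 cases over all settings, lost the call in 5 and turned sign in 21, all of them uncalled. At 24 h, 1 gene in place of 2 passed with the mean of the probes (Gtsf1l 0.72, adjusted p = 0.062), with the arrays of 1 set alone (Spata45 1.06, adjusted p = 0.059) and with the 2 h arrays alone as baseline (Spata45 1.01, adjusted p = 0.055). At 12 h the number passing was 2 to 4 when single arrays were left out, with 2 without array A of 12 h. Listed genes called at day 19 numbered 76, and 47 to 61 when single arrays were left out, 47 without wild-type array B. The replicate block changed no call of the members, and listed genes called at 48 h were 63 with it and 64 without.

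Signs turned for uncalled values. Gtsf1l at day 8 gave -0.03 with the mean of the probes. Ankrd61 gave 0.00 for 2.5 mg against 250 ng with the replicate block and -0.02 at 8 h against 2 h alone. Dnajc5b at day 3 gave -0.08 without the 3 arrays that stood apart, a setting chosen after seeing the data. With single arrays left out, values ran from -0.12 to 0.14 for Dnajc5b at day 3, from -0.04 to 0.36, -0.04 to 0.03 and -0.02 to 0.14 for Gtsf1l, Ankrd61 and Dnajc5b at day 8, and from -0.02 to 0.15, -0.02 to 0.21 and -0.17 to 0.04 for Gtsf1l, Spata45 and Dnajc5b at day 13. They ran from -0.36 to 0.07 for Gtsf1l and -0.07 to 0.25 for Spata45 at 8 h, from -0.89 to 0.02 for Spata45 at 2.5 µg, and from -0.44 to 0.40, -0.04 to 0.87 and -0.24 to 0.01 for Ankrd61, Spata45 and Dnajc5b at 2.5 mg.

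Counts over all genes moved more, and the cause was not tested. Lowest and highest over settings, they were 151 and 1722 at 12 h (1383 as reported), 1126 and 2068 at 24 h (1923), 1245 and 3226 at 48 h (3201), 1669 and 3542 at day 19 (3510), 710 and 1342 at day 3 (1247), 43 and 300 at day 13 (263), 0 and 13 at day 8 (7), 5 and 36 at 8 h (23), 0 and 4 at 2.5 µg (3), 6 and 49 at 25 µg (49) and 158 and 473 at 2.5 mg (445). Signal over background limits Spata45, Dnajc5b and Gtsf1l wherever their levels lie below the background limit.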

Other observations

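Day 27 showed the widest spread among the listed genes of other cell types. In LuRKO testes 9 of 13 markers of spermatogonia rose and none fell against wild type, as did 7 of 10 markers of Sertoli cells (limma), with median log2 differences of 0.86 and 1.00, against 34.3% of all genes higher and 20.9% lower. Gdnf, the Sertoli cell factor that maintains spermatogonia, was higher by 1.30 (adjusted p = 3.8e-09) and Kit, a receptor of differentiating spermatogonia, by 1.22 (adjusted p = 0.00011). Leydig cell genes went both ways. Of 9, 3 were lower and 2 higher in LuRKO at day 27. At day 19 4 were lower and 1 higher, against 11.2% of all genes lower and 12% higher. Insl3, a Leydig cell hormone, was lower in LuRKO by -2.89 at day 27 and by -3.55 at day 19. Cyp11a1, on the brightest of its probes, was higher by 1.68 at day 27 and by 1.01 at day 19.

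At day 19 androgen-responsive Sertoli cell genes were lower in LuRKO in 9 of 10 cases and higher in none, with a median of -1.53, against 11.2% of all genes lower. At day 27 4 of 10 were lower, with a median of -0.62, against 20.9% of all genes lower. Of 9 macrophage markers 7 were lower and none higher at day 19, and 3 were lower and 1 higher at day 27. These counts are to be read against the same shares lower, and against 12% of all genes higher at day 19 and 34.3% at day 27. C1qc differed by -1.27 at day 19 and -0.71 at day 27, and Mrc1 was the marker higher at day 27, by 0.51.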
